A study of Homo sapiens with 6 samples.

Results

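Cytosolic ribosomal protein genes were followed in K562, an established human leukaemia cell line with erythroid and megakaryocytic features, after siRNA against PRAME and under all-trans retinoic acid (ATRA). Members were the probe sets annotated with a single symbol of the form RPL or RPS followed by a number and at most the letter A or X, or with RPLP0, RPLP1, RPLP2 or RPSA, so pseudogenes, the RPS6 kinases and the -like paralogs were left out. The rule found 52 of the 19775 genes with a probe set of 1 symbol, read by 111 of the 54675 probe sets on the array. Of these, 32 genes with 62 probe sets encode proteins of the large subunit, and 20 genes with 49 probe sets encode proteins of the small subunit. A RefSeq gene table lists 77 protein-coding genes whose symbols fit the same rule. A further 64 probe sets carried a ribosomal protein symbol beside another symbol and were not used as members, and 15 genes, among them RPL5, RPS20 and RPS26, were reached only through those. RPLP0, RPSA and RPS27A had no probe set with a single symbol.

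The series holds 6 Affymetrix U133 Plus 2.0 arrays from 3 independent experiments, each with 1 array of cells transfected with the siRNA named RNAi8 and 1 array of cells transfected with scrambled RNA. Both arrays of experiments 1 and 3 came from cells then given ATRA, and both arrays of experiment 2 came from cells given DMSO, its vehicle. All cells were K562, were nucleofected with up to 200 nM of RNA and were incubated for 24 h before ATRA or DMSO was added, so no array shows untransfected cells. Values are log2 signals after the robust multi-array average (RMA), and a difference of 1 is 2 times the signal. PRAME, the targeted gene, read 12.13, 12.14 and 12.10 on the siRNA arrays of experiments 1, 2 and 3, against 13.00, 12.99 and 12.70 on the scrambled RNA arrays. It was lower on the siRNA array of every experiment, with differences of -0.88, -0.85 and -0.60.

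Each ribosome is built from ribosomal RNA and a matched set of ribosomal proteins, so the genes of both subunits are known to be expressed together and at high levels in dividing cells. Their mRNAs usually begin with a cytosine followed by an unbroken run of pyrimidines, the terminal oligopyrimidine (TOP) tract, through which mTORC1 and the RNA-binding protein LARP1 control translation. In erythroid cells the supply of ribosomal proteins is limiting, and loss-of-function mutations in RPS19, RPL11, RPL35A and several others cause Diamond-Blackfan anaemia.

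The starts of member genes carried the feature that defines the class. The RefSeq promoter table (GRCh38.p14) held 46 of the 52 genes, and 34 of them (73.9%) had a listed start at a C followed by at least 4 further pyrimidines. Over all 27305 genes of that table the share was 5.14%, and over 69 mitochondrial ribosomal protein genes it was 8.70%. The motif CCGGAAG, searched on both strands of the 300 bases around the start, was found in 17 of the 46 genes (37.0%) and in 12.2% of all genes. The motif TATAAA, searched on the sense strand in the 50 bases before the start, was found in 1 gene (2.17%) and in 3.33% of all genes. The lines below give 15 bases on either side of the start. First come the genes with the brightest signal (RPL41, RPS18). Next are the genes furthest down in experiment 3 or known from Diamond-Blackfan anaemia (RPS6, RPL29, RPL11, RPS19). Genes whose less bright probe sets are described further on follow (RPL38, RPL37A, RPS10, RPL27A). The last is a gene without the tract at its listed start (RPS4X). Capitals mark the TOP tract from the first base of the mRNA.
RPL41 (chr12:56116618-56116647, plus strand): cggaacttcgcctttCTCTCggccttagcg
RPS18 (chr6:33272060-33272089, plus strand): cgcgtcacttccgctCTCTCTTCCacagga
RPS6 (chr9:19380222-19380251, minus strand): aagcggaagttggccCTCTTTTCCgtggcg
RPL29 (chr3:51995881-51995910, minus strand): caccgcagcccctttCTCTTCCggttctag
RPL11 (chr1:23691791-23691820, plus strand): cggaagctccgctttCTCTTCCTgctctcc
RPS19 (chr19:41860240-41860269, plus strand): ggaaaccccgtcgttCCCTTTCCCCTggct
RPL38 (chr17:74203663-74203692, plus strand): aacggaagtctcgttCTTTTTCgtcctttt
RPL37A (chr2:216498829-216498858, plus strand): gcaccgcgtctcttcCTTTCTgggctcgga
RPS10 (chr6:34426055-34426084, minus strand): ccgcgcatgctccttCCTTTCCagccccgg
RPL27A (chr11:8682777-8682806, plus strand): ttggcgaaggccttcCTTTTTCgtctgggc
RPS4X (chrX:72277234-72277263, minus strand): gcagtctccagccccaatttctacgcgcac
RPL11 and RPS19 have 2 listed starts each, and the one with the longer tract is shown. The tract ran from 5 bases in RPL41 to 11 in RPS19 among the genes shown. A match, or its absence, describes the letters at the listed start only. RPL3, with a run of 4 bases, was counted as without the tract. So were others, among them RPL10A, RPL9, RPS15 and RPS28, where a pyrimidine run began later within the 15 bases after the listed start.

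Member probe sets fell into a bright and a less bright class with no probe set between them. The 70 bright probe sets, which covered 49 of the 52 genes, had means over the 6 arrays from 11.72 to 14.20 with a median of 13.61. The other 41 had means from 3.27 to 10.06, and 12 of them were under 6.00, the median over the array. Of the 50 brightest probe sets on the array 18 were members, and of the 200 brightest 59 were. RPL41, the smallest protein of the large subunit, read 14.19, 14.19 and 14.20 on the siRNA arrays of experiments 1 to 3, against 14.19, 14.19 and 14.24 on the scrambled RNA arrays. RPS18, a small-subunit protein, averaged 14.20 as well, RPS16 14.13, RPL37A 14.11 and RPS10 14.06. The highest value of any probe set was 14.27 to 14.29 across the arrays, and whether these members still followed transcript amount so near the top of the scale was not tested.

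**Figure D1:**
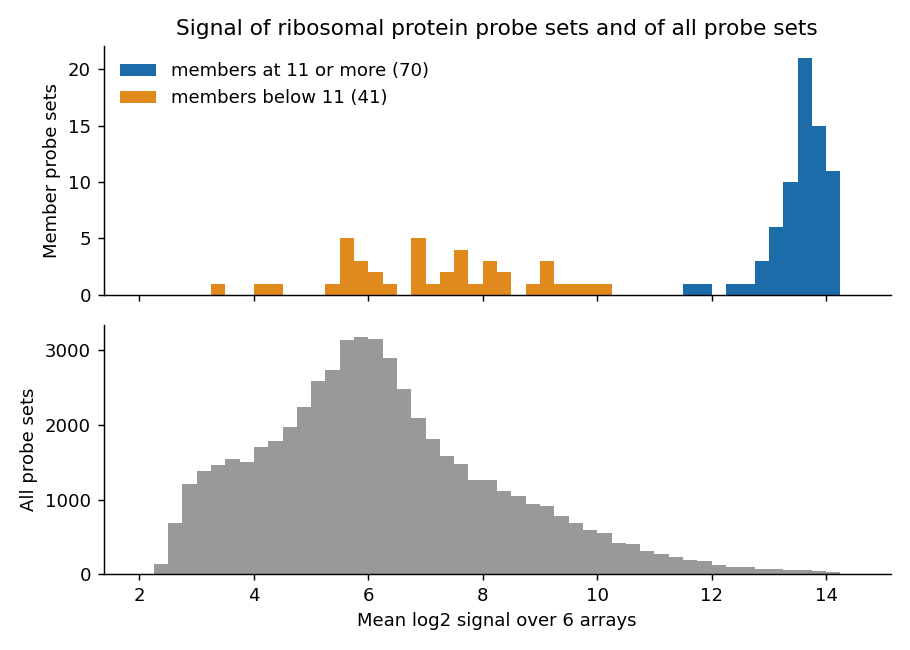
Number of probe sets (y axis) by mean log2 signal over the 6 arrays (x axis, bins of 0.25), for the 111 ribosomal protein probe sets above and all probe sets below. The 70 bright members lie between 11.72 and 14.20, the other 41 between 3.27 and 10.06, and all probe sets have their median at 6.00.

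The signal of a probe set depends on its probes as well as on the transcript, so levels of different probe sets are not amounts of mRNA. The spread within a gene showed this. RPS6, whose protein is phosphorylated downstream of mTORC1, had probe sets with means from 4.27 to 13.52. RPL36 ran from 3.27 to 12.79, RPL35A from 4.12 to 13.21, RPS14 from 5.52 to 13.89 and RPS27 from 5.65 to 13.92. The genes without a bright probe set of their own numbered 3, namely RPL27A (8.17), RPLP2 (6.81) and RPL36A (5.53). For each of these 3 genes 1 bright probe set carried the symbol together with another, with means of 14.05, 13.63 and 13.63 in the same order. After them, RPL36 at 12.79 and RPL29 at 12.91 had the lowest signals of the brightest probe sets.

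The first comparison asked whether siRNA against PRAME altered ribosomal protein mRNA. No member passed the threshold of an adjusted p of 0.05 (limma, Benjamini-Hochberg over 54613 probe sets), and no other probe set did either (0%), while 657 probe sets (1.2%) and 0 members had an unadjusted p under 0.05. Member differences below 0 outnumbered those above 0, with 89 of 111 lower on the siRNA arrays on average, against 47.8% of all probe sets, and a median difference of -0.032, against 0.0046 over all probe sets. This lean was small and came mostly from 1 experiment: 45, 74 and 90 members were lower in experiments 1, 2 and 3, where the shares over all probe sets were 43.7%, 47.3% and 48%. The median member difference was 0.0037, -0.013 and -0.076 in experiments 1, 2 and 3, and their spread of 0.042 (SD, n = 3) was larger than the size of the median difference. Without both arrays of experiment 3, 63 of 111 members were lower and the median was -0.0028, where 25482 of 54613 probe sets were lower. Without its siRNA array alone, 52 of 111 members were lower and the median was 0.0018, where 26512 of 54613 probe sets were lower. That last fit leaves the scrambled RNA array of experiment 3 without its partner.

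The bright probe sets were nearly flat in experiments 1 and 2. Of the 70, 69 differed by no more than 0.05 between the siRNA and the scrambled RNA array in experiment 1, and 69 did in experiment 2, against 20 in experiment 3. Other bright probe sets were flat as well, since 173 and 170 of the 192 with a mean of at least 13 (90.1% and 88.5%) stayed within 0.05 in experiments 1 and 2, and 59 did in experiment 3. The median absolute difference of the bright members was 0.012, 0.015 and 0.084 in the 3 experiments. In experiment 3, 67 of the 70 were lower on the siRNA array, with a median of -0.084 and a range from -0.57 to 0.050. Of the 63 members with a mean of at least 13, 61 were lower in experiment 3 and the median was -0.081, against 100 lower of those 192 other probe sets and a median of -0.0088. Both subunits showed it, with 38 of 40 bright large-subunit probe sets lower (median -0.087) and 29 of 30 small-subunit ones (median -0.076). The difference between members and other bright probe sets was not tested.

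**Figure D2:**
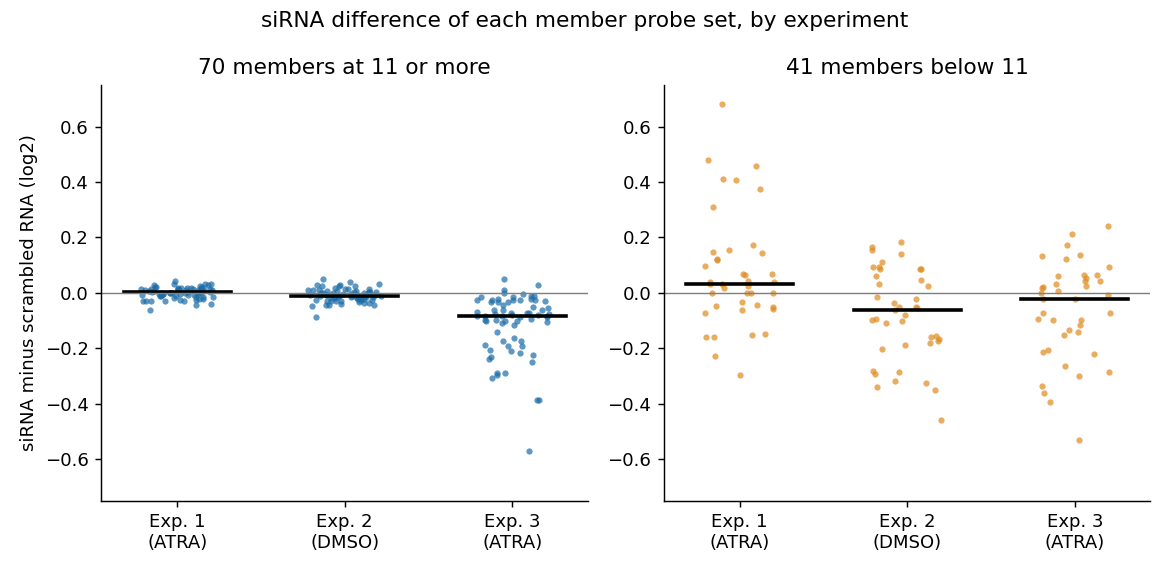
Difference of log2 signal between the siRNA and the scrambled RNA array (y axis) in each experiment (x axis), 1 point per probe set, for the 70 bright members (left) and the 41 less bright ones (right). Black bars are medians, which for the bright members are 0.0011, -0.0099 and -0.084 in experiments 1, 2 and 3.

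RPS6 showed the widest bright difference. The third brightest of its 4 probe sets read 13.54, 13.53 and 12.50 on the siRNA arrays of experiments 1, 2 and 3, against 13.55, 13.53 and 13.07 on the scrambled RNA arrays. The 4 arrays of experiments 1 and 2 were nearly level, both arrays of experiment 3 were lower, and the siRNA array was the lower of these. The fitted difference was -0.19 ± 0.30 (SE; adjusted p = 1, limma). This probe set, like the 3 probe sets of RPL29, RPL37 and RPL36A with values further on, was chosen after its values were seen.

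RPL29, a large-subunit protein, behaved in the same way. Its less bright probe set, with a mean of 12.72, read 12.88, 12.93 and 12.16 on the siRNA arrays, against 12.89, 12.94 and 12.55 on the scrambled RNA arrays, a fitted difference of -0.14 ± 0.22 (SE; adjusted p = 1, limma). RPL11, which carries the 5S ribosomal RNA into the large subunit with RPL5 and binds MDM2, read 13.69, 13.68 and 13.32 on the siRNA arrays, against 13.72, 13.72 and 13.55 on the scrambled RNA arrays. The siRNA array of RPL11 was the lower one in all 3 experiments, with differences of -0.031, -0.045 and -0.23, and the fitted difference was -0.10 ± 0.12 (SE; adjusted p = 1, limma).

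The genes furthest down with the same sign in all 3 experiments were RPL36A (-0.30), RPL35A (-0.11), RPL11 (-0.10), RPS24 (-0.080), RPL34 (-0.077) and RPS25 (-0.057), each taken at its brightest probe set. RPL36A, an X-linked large-subunit protein, read 5.60, 5.69 and 4.84 on the siRNA arrays, against 5.83, 5.85 and 5.37 on the scrambled RNA arrays. Every siRNA array was below its partner, but the probe set was dimmer than the array's median probe set, and the bright probe set shared by RPL36A and another symbol differed by -0.024, -0.032 and -0.24. RPS4X, the X-linked small-subunit protein, was the only gene above 0 in all 3 experiments at its brightest probe set, with 13.78, 13.79 and 13.79 on the siRNA arrays and 13.77, 13.75 and 13.78 on the scrambled RNA arrays. Its difference of 0.021 ± 0.051 (SE; adjusted p = 1, limma) was smaller than its error. Over the 111 probe sets, 28 were lower on the siRNA array in all 3 experiments, against 11.3% of all probe sets, and 5 were higher in all 3, against 12.3%.

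Same-numbered arrays belong to the same experiment by the labels and deviated together, so each experiment was also taken as a block. With the replicate block, 1 of 54613 probe sets passed the threshold (0.00183%), that of PRAME with a difference of -0.78 ± 0.059 (SE; adjusted p = 0.043, limma), and no member did. Unadjusted, 4 of 111 members had a p under 0.05, against 5.27% of all probe sets, and all 4 were lower, where 2.44% of all probe sets had such a p in that direction. They were the single probe set of RPL36A, the 2 dimmest of the 4 probe sets of RPL37 and the dimmest of RPS15A. RPL37, a zinc-binding protein of the large subunit, read 8.10, 8.06 and 6.59 at its dimmest probe set on the siRNA arrays, against 8.39, 8.22 and 6.71 on the scrambled RNA arrays, while its brightest probe set differed by 0.0082, -0.025 and -0.054.

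Experiment 3 stood apart from the other 2 in members and in array controls alike. Correlations of log2 signal across probe sets were 0.996 to 0.998 among the 4 arrays of experiments 1 and 2 and 0.979 to 0.982 between these and the arrays of experiment 3. The 3' minus 5' gap of the actin control probe sets was 2.98 on the siRNA array and 3.36 on the scrambled RNA array of experiment 3, against 0.63 to 0.92 on the other 4. The same gap for GAPDH was 1.20 on the siRNA array and 0.74 on the scrambled RNA array, against 0.030 to 0.078 on the other 4. The spiked-in control transcripts had a median gap of 2.65 and 2.69 in experiment 3, against 1.35 to 1.57. Within experiment 3 the siRNA array thus had the smaller gap for actin and the larger one for GAPDH, and their part in the ribosomal protein values was not tested.

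Experiments 1 and 3 had the same treatment, so their difference describes 2 independent experiments. The bright members were lower in experiment 3 for 54 of 70 probe sets, with a median of -0.091, where 50.7% of all probe sets were lower. By array type the median was -0.13 on the siRNA arrays and -0.047 on the scrambled RNA arrays. Both arrays of experiment 3 lay below all 4 others for 49 of the 111 members, where 22.4% of all probe sets did, and above all 4 others for 27 members, where 22.7% did. Among the bright members alone these counts were 41 and 10 of 70. Among other probe sets with a mean of at least 13, 79 of 192 (41.1%) had both arrays of experiment 3 below the others and 47 had both above, and among those with a mean of at least 11 the counts were 569 (39.8%) and 513 of 1429, so this was common among bright probe sets in general. Across the 70 bright members, the siRNA difference within experiment 3 and the difference between experiments 3 and 1 had a Pearson r of 0.891 and a Spearman rho of 0.837, against 0.330 and 0.432 over 1429 other probe sets with a mean of at least 11. Both measures use the arrays of experiment 3, so the points share them, and the correlation is a description.

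**Figure D3:**
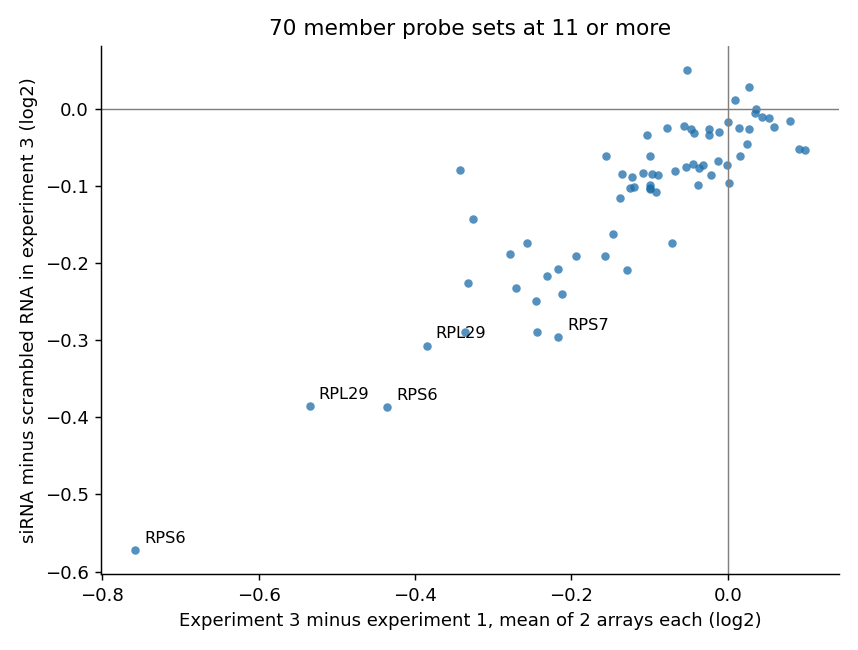
siRNA minus scrambled RNA signal in experiment 3 (y axis, log2) against the signal of experiment 3 minus experiment 1 (x axis, log2, each the mean of 2 arrays), 1 point for each of the 70 bright members. The probe sets furthest down on both axes belong to RPS6 and RPL29, and the points have a Pearson r of 0.891.

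The genes furthest down in experiment 3 against experiment 1 were RPL36A (-0.61), RPL29 (-0.39), RPL8 (-0.34), RPS9 (-0.33) and RPL12 (-0.28). RPL8, which lies near the peptidyl transferase centre, read 12.79 and 12.87 on the siRNA and the scrambled RNA array of experiment 3, against 13.18 and 13.17 in experiment 1. RPL12, a protein at the base of the stalk, read 13.34 and 13.53, against 13.71 and 13.71. In each of these genes both arrays of experiment 3 were below both of experiment 1. The genes furthest up were RPL27A (0.96), RPLP2 (0.43), RPL37 (0.099), RPL14 (0.091) and RPL10A (0.079). RPL37 read 14.02 and 14.07 in experiment 3, against 13.95 and 13.94 in experiment 1.

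Probe sets of the same gene often disagreed in experiment 3. Of 15 genes with at least 2 bright probe sets, 10 had siRNA differences in experiment 3 that lay at least 0.1 apart and 4 had differences at least 0.2 apart. The same count was not made for other genes. The median absolute difference in experiment 3 was 0.11 over 1429 other probe sets with a mean of at least 11, against 0.084 for the bright members. For RPS6 the brightest, the second and the third probe set by mean signal differed by -0.086, -0.39 and -0.57. RPS7, a small-subunit protein, differed by -0.30 at its less bright probe set (mean 13.51) and by -0.025 at its brightest (mean 13.71). RPL35A differed by -0.29 at its brightest probe set (mean 13.21) and by -0.031 at the next (mean 13.15). RPL14 differed by -0.052 at its brightest (mean 13.74) and by -0.29 at the next (mean 13.24). The largest differences were thus not shared by all probe sets that read the same gene. The 3 genes whose bright probe sets lay closest together, RPL7, RPS4X and RPS10, had all their bright probe sets between -0.034 and 0.011.

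**Figure D4:**
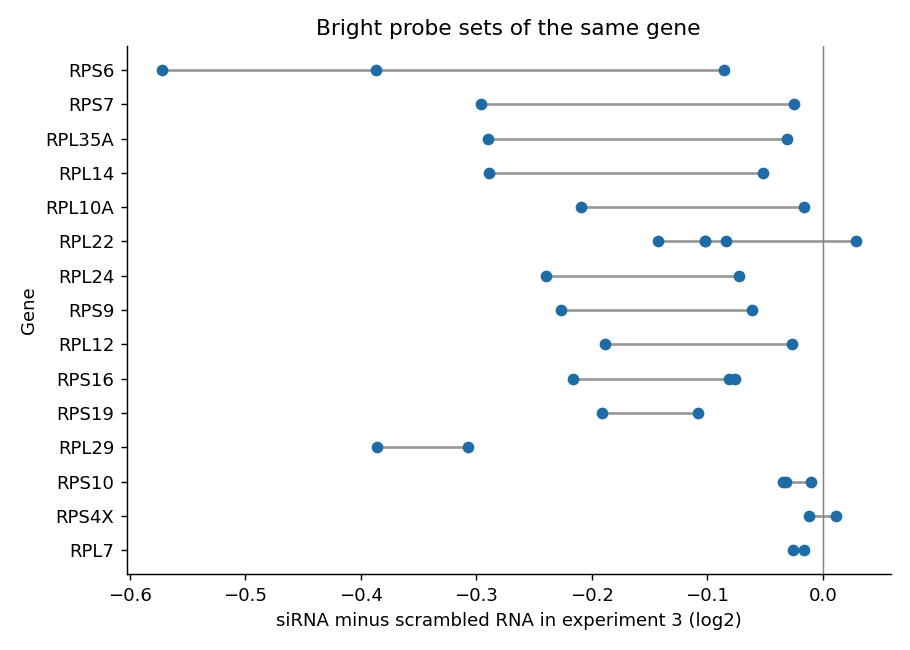
siRNA minus scrambled RNA signal in experiment 3 (x axis, log2) of each bright probe set, 1 point per probe set, for the 15 genes with at least 2 (rows, joined by a line). The points of RPS6 lie between -0.57 and -0.086, and those of RPL7 between -0.026 and -0.017.

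The identifier suffix of a probe set tells how unique its probes are, since _x_at marks probes that can bind other transcripts, a point that matters here because ribosomal protein genes have many processed pseudogenes. The 27 bright members with that suffix had a median siRNA difference of -0.061 in experiment 3, and 25 were lower. The 31 with the suffix _s_at had a median of -0.096, and 31 were lower. The 12 plain _at probe sets had a median of -0.11, and 11 were lower. In experiments 1 and 2 the medians of these 3 groups lay between -0.016 and 0.0083. Signals of a gene and of its near-identical copies cannot be separated on this array.

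Genes with and without the TOP tract at a listed start were set side by side at their brightest probe set. The split follows the listed starts, and a gene without a match there may have a tract at another start. The 34 genes with the tract had a median siRNA difference of -0.086 in experiment 3 and 32 were lower, with a range from -0.53 to 0.24. These include RPL27A (0.24), RPLP2 (0.062) and RPL36A (-0.53), which have no bright probe set of their own; the other 31 were all lower, from -0.31 to -0.0049. The 12 genes without it had a median of -0.030 and 10 were lower, with a range from -0.17 to 0.050. The ranges overlap, the groups differ in size, and the difference between them was not tested. In experiment 1 the medians were 0.00084 with and 0.014 without the tract, and in experiment 2 they were -0.015 and -0.0056.

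ATRA was compared with DMSO over experiment means, 2 against 1. No member passed the threshold and no other probe set did (0%; limma on experiment means, 456 probe sets (0.835%) and 0 members with an unadjusted p under 0.05). With experiment as a random block 2 probe sets passed (0.00366%), and no member did. Differences were below 0 for 70 of 111 members, against 54.3% of all probe sets, with a median of -0.028, against -0.015 over all probe sets. With the arrays centred on their medians 58 of 111 members were below 0, against 46.8% of all probe sets, and the median was -0.0024, against 0.011. The 2 ATRA experiments did not show the same: the member median was 0.0045 for experiment 1 against experiment 2, with 63 members higher where 47.9% of all probe sets were, and -0.049 for experiment 3 against experiment 2. Members below DMSO in both ATRA experiments numbered 40, where 36% of all probe sets did so, and members above it in both numbered 34, where 29.9% did. With 1 DMSO experiment, treatment and experiment cannot be told apart.

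The genes furthest down under ATRA, where experiments 1 and 3 were both below DMSO, were RPL36A (-0.36), RPL8 (-0.20), RPL29 (-0.20), RPL36 (-0.14), RPL18 (-0.14) and RPS19 (-0.11). RPS19, the gene most often mutated in Diamond-Blackfan anaemia, read 13.94, 13.95, 13.66 and 13.85 on the ATRA arrays (siRNA and scrambled RNA of experiment 1, then of experiment 3), against 13.96 and 13.96 on the DMSO arrays. The arrays of experiment 1 were close to those of DMSO and the lower values were those of experiment 3. The genes furthest up were RPLP2 (0.30), RPL37 (0.092), RPL10A (0.072), RPL14 (0.070), RPL37A (0.031) and RPS7 (0.029). RPLP2, an acidic protein of the stalk that recruits translation factors, read 6.75, 6.63, 7.15 and 7.09 on the ATRA arrays, against 6.47 and 6.75 on the DMSO arrays, a difference of 0.30 ± 0.26 (SE; adjusted p = 0.99, limma). Its groups overlapped. Its partner RPLP1 read 14.05, 14.04, 13.90 and 14.00 under ATRA, against 14.04 and 14.04 under DMSO.

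The members with the widest differences between experiments 3 and 1 were less bright probe sets of RPL37, RPS24 and RPS27, followed by that of RPL27A (0.96). The less bright of the 2 probe sets of RPS24 read 8.54 and 8.50 in experiment 3, against 7.14 and 7.11 in experiment 1 and 6.79 and 6.97 in experiment 2, while the brightest probe set of RPS24 had a difference of -0.16 between experiments 3 and 1. The less bright probe set of RPS27 read 6.47 and 6.47 in experiment 3, against 5.63 and 4.95 in experiment 1 and 5.20 and 5.17 in experiment 2. The dimmest probe set of RPL37, with values above, differed by -1.59 between experiments 3 and 1. The probe sets of RPL37, RPS24 and RPS27 were chosen after their values were seen.

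The last comparison set the siRNA difference under ATRA against that under DMSO. No member and no other probe set passed the threshold (0%; limma, 702 probe sets (1.29%) and 0 members with an unadjusted p under 0.05), and neither did any with the replicate block. Over all members 82 of 111 had a difference below 0, against 49.8% of all probe sets, with a median of -0.032. The count was 44 with experiment 1 alone for ATRA, where 25711 of 54613 probe sets were below 0. It was 86 with experiment 3 alone, where 27679 of 54613 were. With the block, 7 of 111 members had an unadjusted p under 0.05, against 2.8% of all probe sets, all with the higher siRNA difference under ATRA, where 1.59% of all probe sets had such a p in that direction, and all had an adjusted p of 1 (limma). They were both less bright probe sets of RPL38, 2 of RPL37A and 1 each of RPS10, RPL27A and RPLP2. All 7 had a siRNA difference above 0 in experiment 1 and below 0 in experiment 2. In 6 member probe sets of 5 genes the siRNA array was at least 0.2 higher in experiment 1 and at least 0.2 lower in experiment 2, where 0.566% of all probe sets did this. No member did the reverse, where 0.522% of all probe sets did. These 6 are not a subset of the 7. The dimmest probe set of RPL14 is among the 6 only. RPLP2 and the second brightest probe set of RPL37A are among the 7 only, with differences of 0.12 and 0.15 in experiment 1.

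RPL38, a large-subunit protein known in mice for its part in axial patterning, read 10.13, 9.68 and 10.36 at the second brightest of its 3 probe sets on the siRNA arrays of experiments 1, 2 and 3, against 9.71, 10.14 and 10.32 on the scrambled RNA arrays. The siRNA array was higher in experiment 1, lower in experiment 2 and close to its partner in experiment 3. The dimmest probe set of RPL37A read 8.43, 8.03 and 8.56 on the siRNA arrays, against 7.97, 8.37 and 8.34 on the scrambled RNA arrays. The dimmest probe set of RPS10 read 7.45, 7.06 and 7.85, against 7.04, 7.41 and 7.68. The single probe set of RPL27A read 8.03, 7.76 and 8.92, against 7.66, 7.97 and 8.68. The dimmest probe sets of RPL38 and RPL14 made up the 6. In all 6 the siRNA array of experiment 1 and the scrambled RNA array of experiment 2 were the higher ones, and both arrays of experiment 3 were above the mean of those 4.

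The brightest probe sets of the same genes did not show this pattern. RPL38, RPL37A, RPS10 and RPL14 differed at those by 0.00010 to 0.012 in experiment 1 and by -0.0071 to 0.028 in experiment 2. RPL27A has no bright probe set of its own, and the bright one that it shares with another symbol differed by 0.025 and -0.0093. For the second brightest probe set of RPL38 the difference of siRNA differences was 0.69 ± 0.47 without the block and 0.69 ± 0.17 with it (SE; adjusted p = 1 both times, limma). The probe sets of this group were chosen after their values were seen.

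**Figure D5:**
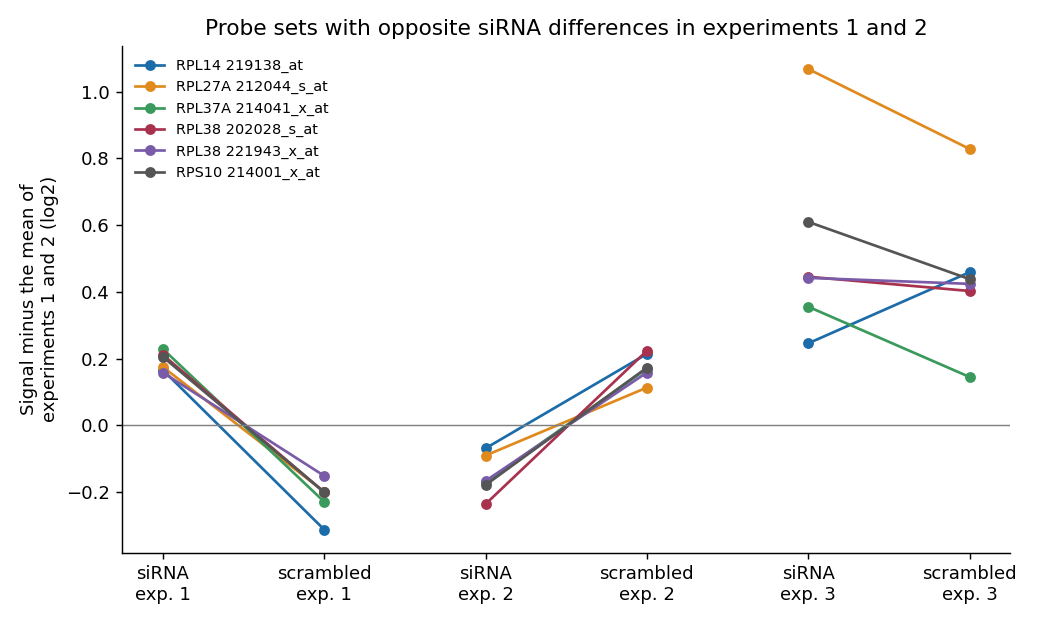
Log2 signal minus the mean of the 4 arrays of experiments 1 and 2 (y axis) on each array (x axis, siRNA left of scrambled RNA in each experiment) for the 6 member probe sets with opposite siRNA differences. The siRNA point is higher in experiment 1 and lower in experiment 2 for all 6, and all points of experiment 3 are above 0.

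At the rule's other end, the genes furthest down in the difference of siRNA differences, where experiments 1 and 3 both stood below or both above experiment 2, were RPL36A (-0.22), RPL18 (-0.13) and RPL12 (-0.12), and those furthest up were RPL27A (0.51), RPLP2 (0.38) and RPL3 (0.052). RPL18 read 13.45 and 13.08 on the siRNA arrays of experiments 1 and 3, against 13.45 and 13.33 on the scrambled RNA arrays, and 13.47 on both arrays of experiment 2. The value again came from experiment 3. RPL3, which lies close to the peptidyl transferase centre, had siRNA differences of -0.016 and 0.050 in experiments 1 and 3, against -0.034 in experiment 2. Counted over all members by sign alone, 8 of 111 had the siRNA difference above 0 in experiments 1 and 3 and below 0 in experiment 2, where 12.5% of all probe sets did. The reverse held for 11 members, where 10.1% of all probe sets did.

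Of 16 ribosomal protein genes known from Diamond-Blackfan anaemia, 11 were members with a probe set of their own. At the brightest probe set all 11 were lower on the siRNA arrays on average, from -0.11 for RPL35A to -0.00045 for RPS10, and 0 passed the test. Their median was -0.037, and by experiment it was -0.0022, -0.013 and -0.099. The same counts for all 52 genes were 46 lower and a median of -0.031. RPS14, whose loss is tied to the 5q- syndrome, read 13.93, 13.93 and 13.77 on the siRNA arrays, against 13.92, 13.95 and 13.85 on the scrambled RNA arrays, with the arrays of experiment 3 again the lowest.

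Genes around the ribosomal proteins gave 0 calls in each comparison. Among 17 measured translation factors and others known for TOP mRNAs, 8 were lower on the siRNA arrays and the median was 0.0024, and in experiment 3 it was 0.027, against -0.078 for the 52 member genes. BTF3, a nascent chain factor, differed by -0.08 and EIF3K, an initiation factor subunit, by -0.10, while PABPC1, the poly(A)-binding protein, differed by 0.04 and EIF2S3, an initiation factor subunit, by 0.05. Of 7 paralogs left out by the rule, 6 were lower, with RPS27L at -0.20 and RPL36AL at -0.15. The 75 mitochondrial ribosomal proteins had 44 lower, a median of -0.019 and -0.11 in experiment 3. MRPS35 differed by -0.55, -0.59 and -0.06 in experiments 1, 2 and 3. The 35 measured assembly factors had 15 lower, a median of 0.017 and 0.070 in experiment 3. Of 13 measured regulators 8 were lower, with a median of -0.022 and of -0.16 in experiment 3. MYC, which drives ribosomal protein transcription, differed by 0.097, -0.029 and 0.29, and LARP1 by 0.16, 0.0018 and 0.19. EIF4E, the regulator furthest up on average, differed by 0.058, -0.0045 and 0.34. MAX, the partner of MYC, differed by -0.023, -0.067 and -0.29, and TSC2, which restrains mTORC1, by -0.079, -0.12 and -0.16. The TSC2 probe set, with a mean of 5.82, was dimmer than the array's median probe set.

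Marker genes were read as a check of the cell line label. Of 12 K562 markers 11 were measured and 0 of these were dimmer than the median probe set, with medians per array of 9.49 to 9.96 on the siRNA arrays and 9.40 to 9.98 on the scrambled RNA arrays. Markers of T and NK lymphocytes, B lymphocytes and stroma had medians per array of 5.40 to 6.21 on the siRNA arrays and 5.36 to 6.14 on the scrambled RNA arrays, and 5 of 7, 2 of 5 and 3 of 6 of them were dimmer than the median probe set. The T cell gene CD3D was an exception, at 9.08 to 10.55 on the siRNA arrays and 9.46 to 10.51 on the scrambled RNA arrays. The 6 epithelial markers had medians per array of 9.86 to 10.59 on the siRNA arrays and 9.98 to 10.63 on the scrambled RNA arrays, above those of the K562 markers on 5 of 6 arrays, and 1 of 6 was dimmer than the median probe set. KRT18 averaged 11.95, EPCAM 11.54 and CDH1 4.85. The part of other cells in the ribosomal protein values was not tested. In bulk RNA, fewer cells and less RNA per cell cannot be told apart.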

How the data were processed

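RNA of 6 K562 samples was measured on Affymetrix U133 Plus 2.0 arrays, after labelling by in vitro transcription from the 3' end per the labels' protocols. The authors deposited log2 values made with RMA per the submitters' processing notes; RMA settings: not given in the sources used here. Arrays have no read depth, and their number sets the precision. The platform annotation named 41091 probe sets with 1 symbol and 1801 with several, and 11721 had none. All 6 arrays differed in their values.

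The test was limma's (version 3.58.1, R 4.3.3, lmFit and eBayes with intensity trend) on 54613 probe sets, leaving out 62 controls, with Benjamini-Hochberg adjustment over all of them and a threshold of 0.05, two-sided. The siRNA fit used 6 arrays with treatment as covariate (3 residual degrees of freedom), the ATRA fit experiment means (1), and the difference of siRNA differences 4 groups (2), where a lone DMSO array stands for its group and its spread is taken from the ATRA groups. In the siRNA fit and the fit of 4 groups, the p-value takes in the level gap between experiments 1 and 3. It thus does not measure the spread of the siRNA difference between experiments, which the fit with the replicate block uses. In the ATRA fit it measures the spread between experiment means. Scripts were tested on simulated data with independent noise on each array and no shift between experiments. That test thus does not cover the deviations that arrays of 1 experiment share here. No value was filtered, and pandas 2.3.3 and numpy 2.4.6 made the summaries.

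Deviations from group means correlated at 0.703, 0.772 and 0.879 between same-numbered arrays. Between arrays of experiments 1 and 2 they correlated at 0.530 and 0.594, and between those and experiment 3 at -0.785 to -0.693. The correlations thus mostly set experiment 3 apart. The labels call the numbers experiments, so the numbers pair the samples. The alternatives were a replicate block, no intensity trend, a filter on dim probe sets, 1 value per gene, centred arrays and leaving out arrays. Bright means a mean of at least 11.

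Members, gene lists and tests were chosen with earlier results of these data known. Named genes, each at its brightest probe set, were the furthest up and down with the same sign throughout (6 each for siRNA and ATRA, 3 each for their difference). To these were added 5 each for levels and for experiment 3 against 1, and the genes of fixed roles. Genes named from the other lists were a selection, and the 2 furthest each way were not named for every list.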

Additional observations from a re-analysis of the deposited data

Results flagged for a closer look

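In 8 of the 33 named probe sets both ATRA experiments had the siRNA difference on one side of 0 and the DMSO experiment on the other side. None of the 8 differences passed the limma test of the difference itself (adjusted p = 1), and 1 DMSO experiment stands against 2 ATRA experiments. The pattern was common: 12.5% of all probe sets had it with ATRA above 0, and 10.1% with ATRA below 0. Among the 111 members the counts were 8 and 11. RPL27A, RPLP2 and RPL18 were named partly for this same difference. The probe sets of RPL38, RPL37A and RPS10 were chosen for opposite siRNA differences in experiments 1 and 2. The count among named probe sets is thus no sign of an excess. The difference of siRNA differences, ATRA minus DMSO, was 0.69 for the second brightest probe set of RPL38, 0.67 for the dimmest of RPL37A, 0.64 for the dimmest of RPS10 and 0.51 for the single one of RPL27A. It was 0.38 for the brightest probe set of RPLP2, with siRNA differences of 0.12 and 0.062 under ATRA and -0.28 under DMSO. It was 0.22 for the less bright probe set of RPS24, with 0.032 and 0.041 under ATRA and -0.18 under DMSO. It was -0.13 for the brightest probe set of RPL18 and -0.10 for that of RPS19, where the differences were -0.0022 and -0.0060 in experiment 1, -0.25 and -0.19 in experiment 3, and 0.0044 and 0.0021 under DMSO.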

How the results depend on the processing

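No member passed the threshold in any fit tried, and the lowest adjusted p of a member was 0.866 (limma). Probe sets past the threshold in the siRNA comparison numbered 0 in the main analysis and 1, PRAME, with the replicate block. They numbered 0 to 1 over the fits that left out 1 array or experiment, with PRAME called when experiment 3 was left out. Without experiment 3, treatment and block split the arrays in the same way, so the fits with and without the block are 1 fit. The ATRA comparison had 2 calls with experiment as a random block, CYP26A1 and an unnamed probe set, and the difference of siRNA differences had 0 throughout. Members below 0 in the siRNA comparison numbered 52 to 96 over the leave-one-out fits, and the median ran from -0.056 to 0.0018. They numbered 52 without RNAi8 replicate 3, 63 without experiment 3 and 96 without experiment 1. In the same order, 26512, 25482 and 26638 of all 54613 probe sets were below 0. In the difference of siRNA differences 82 members were below 0, 44 with experiment 1 alone for ATRA and 86 with experiment 3 alone, so the count followed which experiment entered. Of all 54613 probe sets, 27180 were below 0, 25711 with experiment 1 alone and 27679 with experiment 3 alone. Centring the arrays left 58 members below 0 in the ATRA comparison, against 70 as deposited, and 92 in the siRNA comparison, against 89. With centring, 46.8% and 48.5% of all probe sets were below 0 in these 2 comparisons. The median level of the genes was 13.70 at the brightest probe set and 11.95 with the mean of probe sets per gene, since less bright probe sets then enter. Of 322 alternative values for 33 named probe sets, 316 kept their sign and side of the threshold, 6 in 5 probe sets had the opposite sign and 0 passed the threshold. The replicate block, the fit without intensity trend and the filter on dim probe sets leave the difference itself unchanged, so no sign could change there. The count of 316 is thus no measure of how far the differences held. Over the leave-one-out fits the siRNA difference ran from -0.21 to 0.016 for the brightest probe set of RPL35A, from -0.20 to 0.012 for RPL11, from -0.46 to 0.13 for the third brightest of RPS6 and from -0.32 to 0.089 for the less bright of RPL29, each with its highest value without RNAi8 replicate 3, which leaves the scrambled RNA array of experiment 3 without its partner. For the dimmest probe set of RPL37 it ran from -0.67 to 0.30, with 0.24 without RNAi8 replicate 3 and 0.30 without scrRNA replicate 1. Centring the arrays on their medians moved the median gene difference between experiments 3 and 1 to -0.038, against -0.075 as deposited. The block changed no call of a member. The 2 ATRA experiments and 1 DMSO experiment leave 1 residual degree of freedom for ATRA. Whether signal near the top of the scale was compressed was not tested.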
